A study of Mus musculus with 16 samples.

Results

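The 43 genes described here make the protein machinery that cuts nascent transcripts at their 3′ ends and removes the cut pieces: cleavage and polyadenylation factors, the Integrator complex and the RNA exosome, with Xrn2. They were chosen by name from the annotation of the array (names starting with Cpsf, Cstf, Ints or Exosc and a digit, and 10 further names from Nudt21 to Dis3). The rule itself uses no measured values, but it was chosen with earlier results of these data known. The rule took 61 of the 55681 probes and 43 of the 34779 named genes or transcripts on the array.

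RNA was measured on 16 one-colour Agilent mouse arrays, 1 for each culture of RAW 264.7 cells, an established mouse line with traits of macrophages. The labels name no engineered allele. All cultures spent the last day before treatment and the experiment itself in medium low in serum. Cells received the vehicle DMSO or 20 μM cordycepin in DMSO. After 60 min they received either LPS at 1 μg/ml or a vehicle control for a further 60 min. The 4 conditions are called DMSO, cordycepin, LPS+DMSO and LPS+cordycepin, each lasted 120 min in all, and each had 4 replicates collected on different days. The line is a single one, so the error describes cultures of RAW 264.7 cells and no other macrophages.

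At the end of most genes the cleavage and polyadenylation specificity factor (CPSF) binds the poly(A) signal, usually AATAAA in the DNA, while the cleavage stimulation factor (CstF) binds downstream of the cut. The nuclease within CPSF then cuts the transcript, poly(A) polymerase adds the tail, and Xrn2 degrades the downstream piece until the polymerase lets go. Integrator cuts small nuclear RNAs and transcripts of paused polymerases, and the nuclear exosome digests RNAs that are not protected. Cordycepin is 3′ deoxyadenosine, which lacks the group to which the next nucleotide would be joined and so stops the growth of a tail. In macrophages, genes induced by LPS need new transcripts to be cut and polyadenylated.

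The labels were first set against known genes. The 9 macrophage markers examined, among them Csf1r and Cd68, were well above background on all 16 arrays. Of 8 markers of fibroblasts, T cells, B cells and epithelium, 4 were well above background on at most 1 array, Col1a2 and Cd3d were so on 3 each, Cd79a on 12, and Cd3e (log2 signal 8.33 to 10.19) on all 16. The B cell marker Cd79a had a mean log2 signal of 8.96 in LPS+cordycepin against 6.32 in LPS+DMSO, and its part in the results below was not tested. Tnf, a cytokine induced by LPS, had a mean log2 signal of 11.08 in DMSO and 17.79 in LPS+DMSO, and Il1b had 3.61 and 11.34. Between 21999 and 30362 spots per array were well above background, fewer on the slide with replicates 1 and 2 than on the slide with replicates 3 and 4, and every condition had 2 arrays on each slide. In bulk RNA of a culture, fewer cells that make a transcript and less of it per cell cannot be told apart.

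Of the 43 genes, 40 were tested, because 1 of their probes stood well above background in every array of some condition, and each is represented by its brightest such probe. The other 3 were not. Cstf2t, the copy of Cstf2 known from the germ line, and Cpsf4l, a relative of Cpsf4, were well above background on 0 arrays. The remaining gene was Ints6, which links Integrator to a phosphatase. Its log2 signal was 3.75, 3.83, 4.19 and 2.56 in DMSO, 4.73, 3.80, 5.07 and 5.52 in cordycepin, 3.58, 3.7, 2.98 and 3.92 in LPS+DMSO, and 4.65, 5.57, 5.99 and 5.66 in LPS+cordycepin. It was well above background on 0, 2, 0 and 3 arrays of these conditions, and the LPS+cordycepin values all lay above the LPS+DMSO values. As no LPS+DMSO array measured it, only a bound can be given, at least 1.19-fold higher in LPS+cordycepin (a mean of 5.47 against a limit of 5.21). The mean of 5.47 takes in all 4 LPS+cordycepin arrays, of which 3 measured the probe, so this bound is not strict. The lowest signal well above background also differed between arrays, from 4.41 to 6.33. For cordycepin against DMSO the same bound was 0.692-fold, so no rise can be given there. A fit of every gene without the filter on dim probes takes the unmeasured LPS+DMSO values as they stand, so no test is given.

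Some genes have probes at different places that gave different changes, so 30 bases of each such probe are printed, 5′ to 3′ on the strand of the transcript, with positions on mm9. The first pair belongs to Cstf1. The probe that represents the gene (accession NM_024199) holds the letters AATAAA, in capitals, and the other, on another annotated transcript (ENSMUST00000116375), starts 1229 bases further downstream. Whether cells cut Cstf1 transcripts at this AATAAA was not measured.
Cstf1 with AATAAA, chr2:172206550-172206579, plus strand: cattgtcctggtAATAAAgctcagatctac
Cstf1 downstream, chr2:172207783-172207812, plus strand: agaatatcacacactcatttttgtcacaga

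The Rbbp6, Cstf2 and Cstf3 pairs run the other way. The other probe was designed on another transcript of the gene and starts 23768 bases (Rbbp6, variant 2, NM_175023), 10713 bases (Cstf2, ENSMUST00000113286) or 55788 bases (Cstf3, NM_001037326) upstream of the representing one. Capitals mark ATTAAA, a common variant of the signal, in the upstream Cstf3 probe.
Rbbp6 representing, chr7:130145906-130145935, plus strand: ttggggtggagtttactgtactgtgaaatt
Rbbp6 upstream, chr7:130122138-130122167, plus strand: cacaatcaccctttttctacacaattgctt
Cstf2 representing, chrX:130620923-130620952, plus strand: ttagtggatgattcctgattgagtaagacc
Cstf2 upstream, chrX:130610210-130610239, plus strand: gtgacttggccagattcacttaacaaaaaa
Cstf3 representing, chr2:104505338-104505367, plus strand: ttttcaagggtgtcttgtatgtgccacttg
Cstf3 upstream, chr2:104449550-104449579, plus strand: ttggagttgcaacaacATTAAAacagtttc

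Among the 61 member probes, AATAAA occurs in 3 (4.92%) and ATTAAA in 3, searched on the strand of the transcript. Of all 55681 probes 10.06% hold the first on that strand and 3.74% its complement, and 3.95% hold the second and 2.53% its complement. Each motif was counted on its own, so a probe that holds both counts for both.

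Of the 40 genes, 6 were called in each cordycepin comparison, none of them with a change of 2-fold, and 15.8% (without LPS) and 19.1% (with LPS) of all genes were called. The comparison asked what cordycepin did to the levels of these messages, with and without LPS. In LPS+cordycepin against LPS+DMSO, 1 gene was higher and 5 were lower at an adjusted p under 0.05 (limma, Benjamini-Hochberg over all 15877 genes tested), where 10.8% of all genes were called higher and 8.35% lower. The higher gene was Ssu72, and the lower ones were Clp1, Ints12, Cstf1, Dis3 and Wdr33. In cordycepin against DMSO, 3 were higher (Cstf3, Cpsf3 and Ints9) and 3 were lower (Ints12, Cstf1 and Fip1l1), beside 8.07% and 7.73% of all genes. With LPS alone 3 were called higher (Pcf11, Cstf3 and Rbbp6) and 0 lower, beside 5.11% and 9.74%. Pcf11 entered the test only through the LPS conditions, where it is high, and with a filter on all 16 arrays the count was 2. For the interaction, which is the cordycepin change with LPS less that without, 0 of 40 were called, beside 0.29% of all genes higher and 0.258% lower, and 1 member (Dis3) had an unadjusted p under 0.05.

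At 2-fold or more no representing probe of a member was called in any of the 4 comparisons. Of all genes 7.46%, 5.54%, 4.58% and 0.359% were, in the order just given. The precision allows the changes of the representing probes to be put as intervals. In LPS+cordycepin against LPS+DMSO, 39 of the 40 members had a 95% interval of their change that lay within 2-fold in both directions, as did 82.2% of all genes. Without LPS the number was also 39, beside 84.4%. The exception was Cpsf3l. These counts leave out further probes, among them one of Rbbp6, given below, that differed by -1.69 with LPS and -1.48 without. The median log2 change of the members was 0.01 with LPS and 0.03 without, beside 0.04 and 0.03 over all genes.

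Another scaling moved the split between directions. With each array set to the 75th percentile over all probes, 0 members were higher and 6 lower in LPS+cordycepin against LPS+DMSO, and 1 was higher and 4 lower in cordycepin against DMSO, while 21.5% and 16.5% of all genes were called. That scaling moved the median of all genes to -0.09 and -0.03. When arrays were scaled to 7 spiked-in control probes, 1 member was called with LPS (Cpsf3l) and 0 without, and the all-gene median moved to -0.12 and 0.10. Of all member calls, only those of Cstf1 in both cordycepin comparisons remained in each of the 4 fits without 1 replicate number. Changes below are relative to the genes well above background on all arrays.

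**Figure D1:**
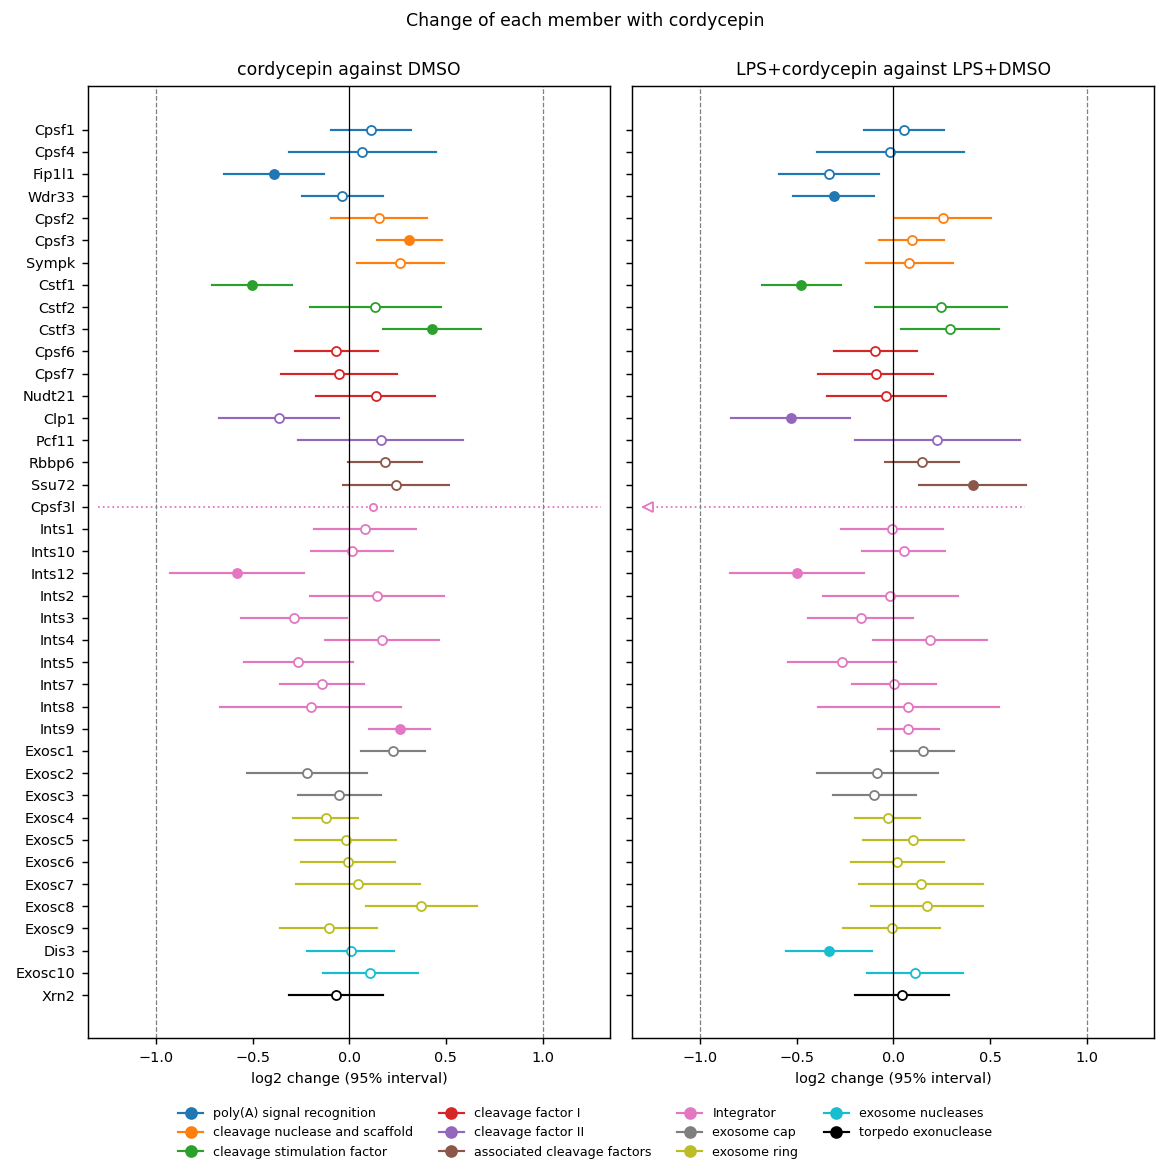
Log2 change of the 40 tested members in cordycepin against DMSO (left) and LPS+cordycepin against LPS+DMSO (right), with the 95% interval from 4 arrays a condition. Colours give the role, filled points were called at an adjusted p under 0.05, and dashed lines mark 2-fold. Cpsf3l is dotted because its interval runs past the axis in both panels, and the arrowhead on the right stands for its value of -1.66, which lies off the axis. All other intervals lie between the dashed lines.

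Of the 4 proteins that recognise the poly(A) signal, the representing probes of Wdr33 and Fip1l1 were lower in 1 cordycepin comparison each. Cpsf1 and Cpsf4 had intervals on both sides of 0. Cpsf4 and Wdr33 contact the signal itself. The log2 signal of Cpsf4 was 11.21, 10.67, 11.25 and 11.35 in DMSO, 11.12, 11.06, 11.44 and 11.13 in cordycepin, 10.93, 11.19, 10.88 and 11.60 in LPS+DMSO, and 11.13, 10.86, 11.39 and 11.16 in LPS+cordycepin. All 4 ranges overlapped. Its change was -0.02 (95% interval -0.40 to 0.36) in LPS+cordycepin against LPS+DMSO, 0.07 (-0.31 to 0.45) in cordycepin against DMSO and 0.03 (-0.35 to 0.41) with LPS. A further, dimmer Cpsf4 probe 11281 bases upstream gave 0.00 and 0.21 in the cordycepin comparisons, neither called.

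Wdr33 was 10.98, 11.10, 10.88 and 10.99 in DMSO and 10.95, 10.92, 10.99 and 10.94 in cordycepin, which overlap. It was 11.28, 11.11, 11.19 and 11.03 in LPS+DMSO and 10.81, 11.01, 10.98 and 10.56 in LPS+cordycepin, which do not. With LPS the change was -0.31 ± 0.10 (SE, adjusted p = 0.0384), lower on all 4 days, and without LPS it was -0.04 (adjusted p = 0.860). The difference between these changes did not pass the test (-0.27, adjusted p = 0.718). Dropping LPS+DMSO replicate 1, 2 or 3, LPS+cordycepin replicate 1 or 4 or cordycepin replicate 1, 2 or 4 ended the call (-0.32 to -0.22, adjusted p up to 0.120). So did quantile normalization (adjusted p = 0.0533), normexp (0.0810), the authors' values (0.0506) and a fit of only these groups (0.125). A further Wdr33 probe, upstream, was called lower in both cordycepin comparisons, as given below. With the mean of its probes Wdr33 was also called lower without LPS (-0.32, adjusted p = 0.0239).

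Fip1l1 binds U-rich RNA and poly(A) polymerase. Its signal was 12.18, 12.06, 12.22 and 12.22 in DMSO and 11.87, 11.78, 11.84 and 11.63 in cordycepin, with every cordycepin array below every DMSO array. The change was -0.39 ± 0.12 (SE, adjusted p = 0.0391), and with LPS it was -0.33 ± 0.12 (adjusted p = 0.0721). With the replicate number as a block the first lost its call (adjusted p = 0.0563), as it did under normexp (0.0612), with the mean of its probes (-0.28, adjusted p = 0.139) and without DMSO replicate 1, 3 or 4, any 1 cordycepin replicate or LPS+cordycepin replicate 3 (-0.42 to -0.34, adjusted p up to 0.119). Its second probe, 4171 bases upstream, changed by -0.16 and -0.01 and was not called.

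Cpsf3, the nuclease that makes the cut, was higher with cordycepin alone, and its partners Cpsf2, an inactive relative of the nuclease, and Sympk, the scaffold that holds both, were not called. The signal of Cpsf3 was 13.60, 13.56, 13.61 and 13.46 in DMSO and 13.91, 13.90, 13.89 and 13.78 in cordycepin. The ranges do not overlap, and the change was 0.31 ± 0.08 (SE, adjusted p = 0.0124). With LPS present it was 0.10 (adjusted p = 0.495). Its call remained without any single array (adjusted p up to 0.0385) and was lost without replicate 1 or 3 of every condition (0.0916 and 0.105), with no filter on dim probes (0.0960) and with the 75th percentile over all probes (0.25, adjusted p = 0.149). Sympk changed by 0.26 (adjusted p = 0.112) and Cpsf2 by 0.15 (adjusted p = 0.445) without LPS.

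The 3 measured subunits of CstF moved apart. The probe of Cstf1 that carries the AATAAA printed above fell with cordycepin in both settings, Cstf3 was higher with cordycepin and with LPS, and Cstf2, the subunit that binds RNA, was not called. Cstf1 read 13.61, 13.45, 13.80 and 13.90 in DMSO, 13.21, 13.17, 13.29 and 13.09 in cordycepin, 13.72, 13.55, 13.73 and 13.64 in LPS+DMSO, and 13.10, 13.14, 13.22 and 13.28 in LPS+cordycepin. Every cordycepin array lay below every array without it. The change was -0.50 ± 0.10 (SE, adjusted p = 0.00161) without LPS and -0.48 ± 0.10 (adjusted p = 0.00197) with it, and in these comparisons no other member passed an adjusted p under 0.01. Both remained in all 16 fits without 1 array and in all 4 without 1 replicate number (the former with adjusted p up to 0.00839), and in 11 of 13 other settings. Under spiked-in scaling neither was called. With the mean of its probes in place of the brightest the sign turned, to 0.05 and 0.24, neither called.

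Cstf3 bridges the other CstF subunits and CPSF. It read 11.75, 11.76, 12.06 and 11.93 in DMSO, 12.16, 12.29, 12.38 and 12.37 in cordycepin and 12.16, 12.47, 12.28 and 12.74 in LPS+DMSO. Both treated conditions lay above DMSO without overlap, while the 2 treated conditions overlapped each other. Cordycepin gave 0.43 ± 0.12 (SE, adjusted p = 0.0217) and LPS 0.54 ± 0.12 (adjusted p = 0.00522), 2 comparisons that share the DMSO arrays. LPS+cordycepin read 12.55, 12.79, 12.78 and 12.70, a change of 0.29 from LPS+DMSO (adjusted p = 0.110; 0.0175 without LPS+DMSO replicate 4). The call with cordycepin alone ended without DMSO replicate 1 or 2 or cordycepin replicate 3 or 4 (0.39 to 0.40, adjusted p up to 0.0647) and with the mean of its probes (0.14, adjusted p = 0.515). It also ended without any 1 replicate number (adjusted p up to 0.129). The call with LPS remained without any single array and ended without replicate 2 of every condition (0.0582) and with the mean of its probes (0.34, adjusted p = 0.0743).

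Cleavage factor I, which binds upstream of the cut and steers the choice of site, had 0 of 3 members called in any comparison. That count stands beside the shares of all genes given above. Nudt21, Cpsf6 and Cpsf7 changed by -0.09 to -0.04 with LPS present and by -0.07 to 0.14 without. In cleavage factor II, the RNA kinase Clp1 and Pcf11, which links cleavage to termination, each had 1 call. Clp1 was 9.70, 9.62, 9.68 and 9.89 in LPS+DMSO and 8.97, 9.46, 9.49 and 8.83 in LPS+cordycepin, 4 values below the lowest LPS+DMSO array. It fell by 0.53 on the log2 scale (SE 0.15, adjusted p = 0.0162) and without LPS the change was -0.36 (adjusted p = 0.111), with 9.33, 9.58, 9.59 and 9.39 in DMSO and 9.17, 8.85, 9.20 and 9.21 in cordycepin. Dropping LPS+DMSO replicate 4 or LPS+cordycepin replicate 1 or 4 took the first past the threshold (adjusted p up to 0.0556), as did a fit of only these groups (0.0593).

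Pcf11 was dim, at 5.58, 6.04, 5.77 and 5.85 in DMSO and 6.38, 6.38, 6.49 and 6.99 in LPS+DMSO, and was well above background on only 2 of the 4 DMSO and 3 of the 4 cordycepin arrays. It was kept because all 4 arrays of each LPS condition measured it, so its call partly follows from the filter. The measured difference with LPS was 0.75 ± 0.20 (SE, adjusted p = 0.0178), and a filter on all 16 arrays leaves Pcf11 out. Normexp gave 0.28 (adjusted p = 0.427), and without DMSO replicate 1 or LPS+DMSO replicate 4 the adjusted p was 0.0524 or 0.0617. Pcf11 in cordycepin was 6.14, 6.04, 6.28 and 5.43, and in LPS+cordycepin 6.41, 7.01, 6.65 and 7.09, and neither cordycepin change was called (0.16 and 0.23).

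Ssu72 removes phosphates from the tail of RNA polymerase II. Its signal was 13.65, 13.66, 13.76 and 13.77 in LPS+DMSO and 14.09, 14.05, 14.17 and 14.16 in LPS+cordycepin, with no overlap. The change was 0.41 ± 0.13 (SE, adjusted p = 0.0361). It was 13.62, 14.39, 13.71 and 13.79 in DMSO and 14.04, 14.20, 14.15 and 14.08 in cordycepin (0.24, adjusted p = 0.247). DMSO replicate 2 was the highest array of all, and without it this change was 0.41 and was called (adjusted p = 0.000961). The call with LPS ended without any 1 LPS+DMSO replicate or without LPS+cordycepin replicate 1, 3 or 4 (adjusted p up to 0.0897), and under quantile normalization (0.0539), the percentile over all probes (0.156) and the authors' values (0.0739).

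**Figure D2:**
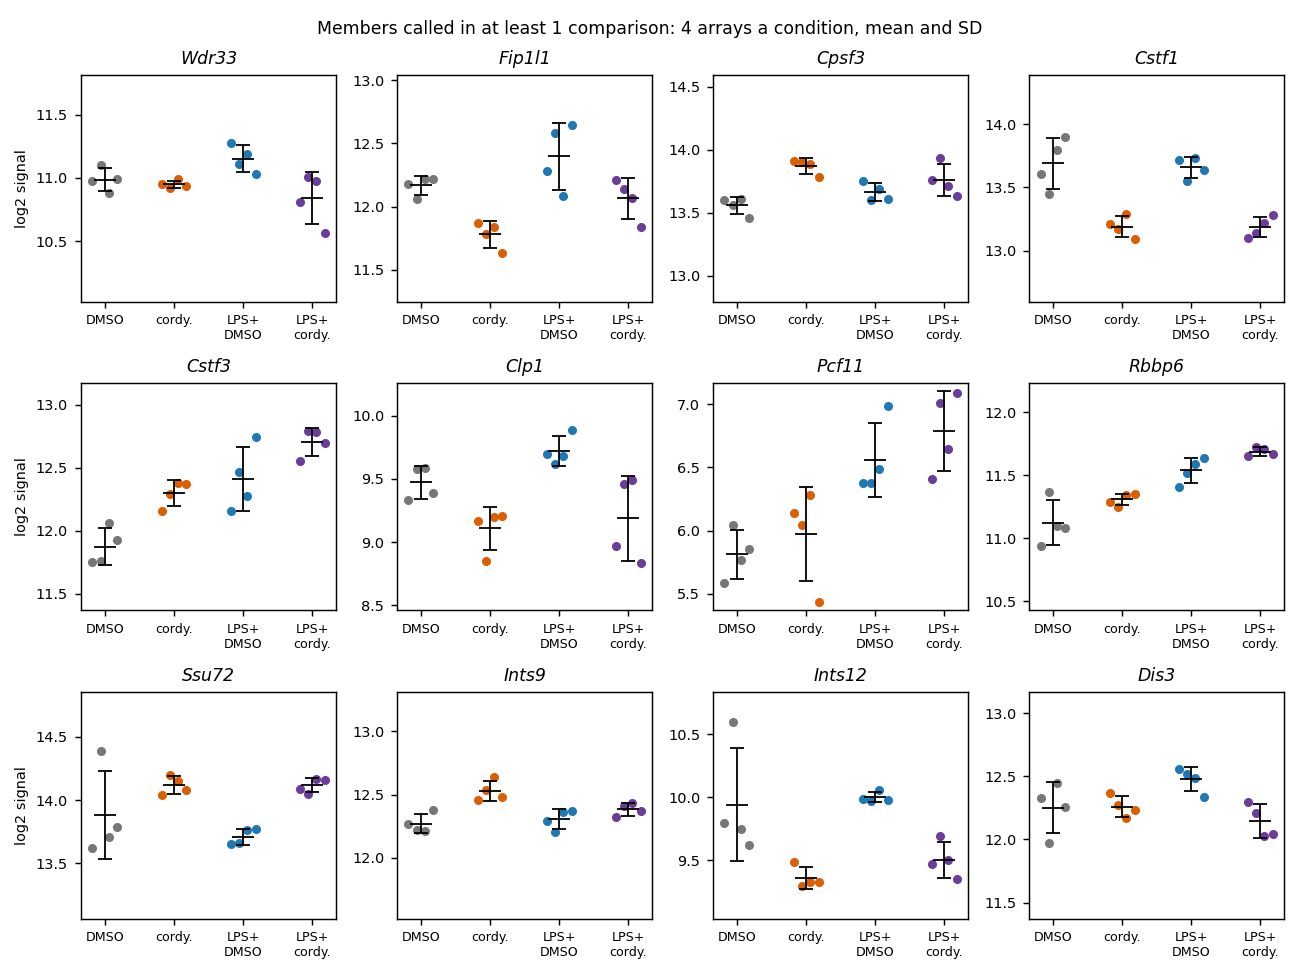
Log2 signal of the 12 members called in at least 1 comparison, with 1 point for each of the 4 arrays of a condition and the mean and SD in black. Every panel spans the same number of log2 units. Cstf1 is lower in both cordycepin conditions, Cstf3 is lowest in DMSO, and DMSO replicate 2 of Ints12 and Ssu72 sits above the other 3 DMSO arrays.

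Integrator had 11 tested members. With LPS 1 of them was lower and 0 higher after cordycepin, without LPS 1 was higher and 1 lower, and with LPS alone 0 were called. For 1 of 11 the share is 9.09%, near those of all genes (10.8% higher and 8.35% lower with LPS, 8.07% and 7.73% without). Ints12, a small subunit with a PHD finger, was lower in both cordycepin comparisons. It read 9.80, 10.60, 9.75 and 9.62 in DMSO and 9.49, 9.30, 9.33 and 9.33 in cordycepin, then 9.99, 9.97, 10.06 and 9.98 in LPS+DMSO and 9.47, 9.69, 9.50 and 9.35 in LPS+cordycepin. In both pairs every cordycepin array lay below. The changes were -0.58 ± 0.16 (SE, adjusted p = 0.0223) and -0.50 ± 0.16 (adjusted p = 0.0437). Without DMSO replicate 2 the first was -0.36 and remained called, and it ended without cordycepin replicate 2, 3 or 4 (adjusted p up to 0.0606). The second remained only without DMSO replicate 2, 3 or 4 or LPS+cordycepin replicate 2, and the other 12 fits without 1 array gave an adjusted p of 0.0508 to 0.111. Normexp ended both (0.0552 and 0.0805), and a fit of only the groups compared ended the first (0.0952).

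Ints9 forms the cutting pair of Integrator with the nuclease Ints11, which the array names Cpsf3l. Ints9 was 12.27, 12.22, 12.21 and 12.38 in DMSO and 12.46, 12.54, 12.64 and 12.48 in cordycepin, a rise of 0.26 ± 0.07 (SE, adjusted p = 0.0243) with no overlap. With LPS the change was 0.08 (adjusted p = 0.567). Dropping DMSO replicate 1 or 3 or cordycepin replicate 2 or 3 ended the call (adjusted p up to 0.0866), as did the percentile over all probes (0.124), a fit of only these groups (0.0936) and the mean of its probes (0.11, adjusted p = 0.728).

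Cpsf3l itself lay between 12.16 and 12.65 on 15 arrays and at 5.49 on LPS+cordycepin replicate 3. That spot alone gave the change of -1.66 (SE 1.1, adjusted p = 0.373), with the widest interval of any member. With the spot set to missing the change was 0.06 (adjusted p = 0.844). The other Integrator members, Ints1, Ints2, Ints3, Ints4, Ints5, Ints7, Ints8 and Ints10, changed by -0.27 to 0.19 with LPS and by -0.29 to 0.17 without, and none was called. Ints5 was called lower in LPS+cordycepin against LPS+DMSO under quantile normalization (-0.48, adjusted p = 0.0429) and in the authors' values (-0.43, adjusted p = 0.0157), and Ints3 in cordycepin against DMSO with the percentile over all probes (-0.34, adjusted p = 0.0355).

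No subunit of the exosome's core was called. Of its 9 subunits, the cap (Exosc1, Exosc2 and Exosc3) and the ring (Exosc4 to Exosc9), 0 were called in any comparison. Of all genes, 10.8% were called higher and 8.35% lower after cordycepin with LPS, and 8.07% and 7.73% without. With LPS alone the shares were 5.11% and 9.74%, and for the interaction 0.29% and 0.258%. The probes of Exosc2 and Exosc9 share sequence with many other places, as given below. Their cordycepin changes ran from -0.10 to 0.18 with LPS and from -0.22 to 0.37 without. The largest was Exosc8 without LPS, at 0.37 (adjusted p = 0.0799), and it was called with the slide as a block (adjusted p = 0.0392) or without DMSO replicate 1 (0.0496) or LPS+cordycepin replicate 2 (0.0468) or 4 (0.0403). Exosc1 stood at 0.23 (adjusted p = 0.0627; called with quantile normalization, 0.0437, and without DMSO replicate 1, 0.0252). A further Exosc1 probe of similar brightness, 1607 bases downstream, changed by 0.03 without LPS (adjusted p = 0.906) and by -0.01 with it.

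The catalytic subunits ride on that core. Dis3, the main nuclease of the nuclear exosome, was 12.56, 12.52, 12.49 and 12.34 in LPS+DMSO and 12.30, 12.21, 12.03 and 12.04 in LPS+cordycepin, without overlap. It fell by 0.33 on the log2 scale (SE 0.10, adjusted p = 0.0365). Without LPS it was 12.33, 11.97, 12.45 and 12.26 in DMSO and 12.37, 12.27, 12.17 and 12.23 in cordycepin, which overlap (0.01, adjusted p = 0.980). The interaction was -0.34 (adjusted p = 0.595). Leaving out LPS+DMSO replicate 1, 2 or 3 or LPS+cordycepin replicate 3 or 4 ended the call (-0.33 to -0.29, adjusted p up to 0.111). Exosc10, the other nuclease, changed by 0.11 in both cordycepin comparisons, and Xrn2, which chases the polymerase after the cut, by 0.04 and -0.07, all uncalled. With LPS alone the representing Exosc10 probe changed by 0.21 (adjusted p = 0.274). A further Exosc10 probe, 4519 bases upstream, rose by 0.34 (adjusted p = 0.00621). With the mean of its probes Exosc10 was called higher with LPS alone (0.28, adjusted p = 0.0393).

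The probe of Exosc2 shares stretches of sequence with many other places. Its mean log2 signal was 18.34, only 21 probes on the array were brighter, and the next brightest kept member probe stood at 14.62. Of its 60 bases, at least 15 in a row occur in 143 of 32851 promoter windows of 300 bases from RefSeq (GRCm38.p6, searched on both strands). All 30 bases shown lie in such shared stretches (each 15 bases found in at least 5 windows), and so are in capitals.
Exosc2, chr2:31536707-31536736, plus strand: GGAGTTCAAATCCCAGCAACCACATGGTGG
The Exosc9 probe shared 15 bases with 216 windows and with 129 probes of other genes. No other member probe matched more than 7 windows.

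The changes with and without LPS can be set side by side, since the cordycepin comparisons share no array. Over the 40 members Pearson's r was 0.46 and Spearman's rho 0.74, and without Cpsf3l they were 0.82 and 0.79, against 0.84 and 0.66 over all genes. The sign was the same in 29 of 40 members (72.5%) and in 73.2% of all genes. These are descriptions across genes, which are not independent, and the arrays of a slide are shared by all conditions.

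**Figure D3:**
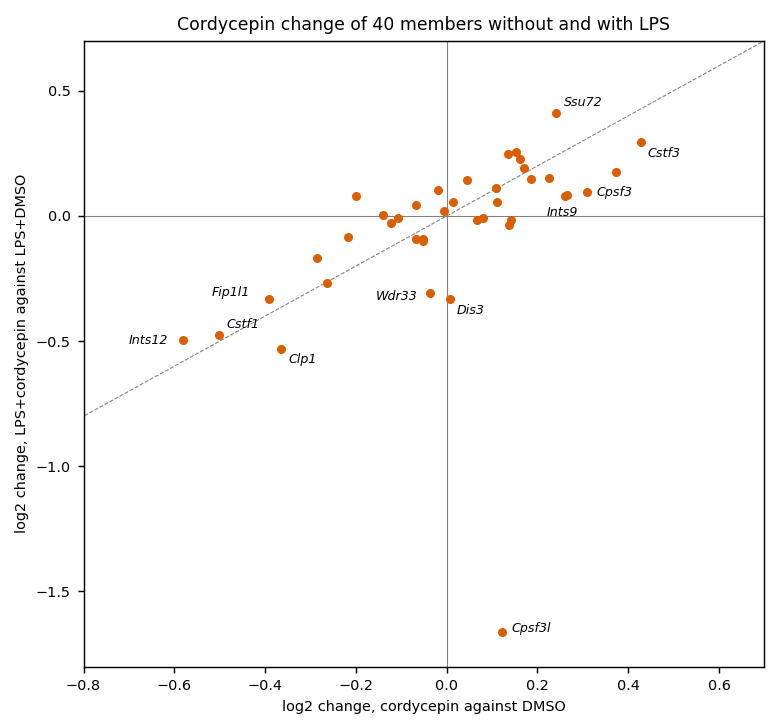
Log2 change of each of the 40 members in cordycepin against DMSO (horizontal) and LPS+cordycepin against LPS+DMSO (vertical), with the line of equal change dashed. Ints12, Cstf1, Clp1 and Fip1l1 lie lower left, and Cpsf3l lies far below the rest because of 1 array.

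With LPS alone, Rbbp6 was 10.94, 11.37, 11.10 and 11.08 in DMSO and 11.41, 11.52, 11.59 and 11.64 in LPS+DMSO, 4 values above the highest DMSO array. Rbbp6 is a large ubiquitin ligase that joins the cleavage complex. The rise was 0.41 ± 0.09 (SE, adjusted p = 0.00436), remained without any single array (adjusted p up to 0.0166) and ended without replicate 3 or 4 of every condition (0.0814 and 0.0720) and with the mean of its probes (0.29, adjusted p = 0.0654). The representing probe was not called with cordycepin (0.19 and 0.15), where it read 11.29, 11.25, 11.34 and 11.35 alone and 11.65, 11.72, 11.71 and 11.67 with LPS. Without DMSO replicate 2 the first of these was 0.27 and was called (adjusted p = 0.0218). With the mean of its probes Rbbp6 was instead called lower with cordycepin, by -0.65 without LPS and -0.77 with it. That mean takes in the upstream probe given next, which was kept through conditions where it is high. These 2 calls therefore partly follow from the filter.

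The upstream Rbbp6 probe was lower with cordycepin. It read 7.17, 6.96, 7.01 and 7.05 in DMSO, 5.25, 5.55, 5.71 and 5.75 in cordycepin, 6.95, 7.09, 7.21 and 7.59 in LPS+DMSO, and 5.37, 5.34, 5.65 and 5.73 in LPS+cordycepin. Each array with cordycepin lay more than 1 log2 unit below each array without. The measured log2 difference was -1.48 without LPS and -1.69 with it. All 4 arrays of both conditions without cordycepin measured it well above background, but only 2 of 4 did in each condition with cordycepin. It was kept through the conditions where it is high, so these differences are given as a description, with no test. A further Rbbp6 probe on the same variant was too dim to be kept, with means of 5.63, 4.74, 6.02 and 4.90 in DMSO, cordycepin, LPS+DMSO and LPS+cordycepin.

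A gene's probes were then compared within each array, which cancels the scaling of the array. Over all genes 5720 further kept probes could be set against the representing one, 11 of them from 10 member genes. The difference changed with cordycepin for 3 of the 11 in the presence of LPS (13.2% of all) and for 4 without (10.3% of all). Among the 9 member probes upstream of the representing probe, 2 fell against it with LPS and 4 without, beside 6.3% and 3.76% of all upstream probes. Of the 2 downstream, 1 rose against it with LPS and 0 without, beside 16.8% and 14% of all downstream probes. Without the upstream Rbbp6 probe, the counts over both directions are 2 of 10 with LPS and 3 of 10 without. Both upstream counts also include that probe. Beside it they hold the probe of Cstf2 with LPS, and those of Wdr33, Cstf2 and Cstf3 without. These comparisons were chosen after the values were seen.

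The Rbbp6 difference, upstream less representing, was -1.84 with LPS and -1.67 without, lower in all 4 replicates, again as a description because of the filter. For Cstf2 it was -0.87 ± 0.16 (adjusted p = 0.00149) with LPS. The upstream Cstf2 probe read 8.47, 8.74, 8.69 and 8.69 in LPS+DMSO and 8.09, 8.03, 8.16 and 7.83 in LPS+cordycepin, without overlap, while the representing one read 9.69, 10.07, 9.69 and 10.18 and then 10.05, 10.03, 10.29 and 10.24. Without LPS the Cstf2 difference was -0.59 ± 0.16 (adjusted p = 0.0285). That call ended under normexp (0.0872), in the authors' values (0.0756) and without DMSO replicate 1, 3 or 4 or cordycepin replicate 1, 3 or 4 (adjusted p up to 0.0980). Another Cstf2 probe, 367 bases from the representing one, did not differ beyond the test (0.03 and 0.10).

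The upstream Cstf3 probe, whose sequence holds ATTAAA, read 9.76, 9.06, 10.03 and 9.86 in DMSO and 9.56, 9.53, 9.44 and 9.57 in cordycepin, while the representing one rose. The difference was -0.58 ± 0.16 without LPS (adjusted p = 0.0296) and -0.43 with it (adjusted p = 0.106). The first ended without DMSO replicate 1, 3 or 4 or cordycepin replicate 2, 3 or 4 (adjusted p up to 0.0935), and the second was called without DMSO replicate 2 (0.0276) or LPS+DMSO replicate 4 (0.0342). For Wdr33, a probe on another transcript (variant 4, NM_001170966) 73072 bases upstream fell from 9.83, 9.98, 9.89 and 9.78 in DMSO to 9.45, 9.34, 9.23 and 9.07 in cordycepin. The change was -0.60 (adjusted p = 0.00169) and the difference from the representing probe -0.56 ± 0.13 (adjusted p = 0.00925), which ended without replicate 2 or 3 of every condition (adjusted p up to 0.0559). With LPS the upstream Wdr33 probe fell by 0.36 on the log2 scale (adjusted p = 0.0388), and the difference was -0.06 (adjusted p = 0.897).

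For Cstf1 the downstream probe lay higher with cordycepin where the probe that holds AATAAA was lower. The downstream probe read 8.80, 7.71, 8.78 and 9.23 in DMSO, 8.91, 8.88, 9.84 and 9.31 in cordycepin, 7.82, 8.36, 7.89 and 9.02 in LPS+DMSO, and 8.78, 8.66, 9.82 and 9.67 in LPS+cordycepin. These ranges overlap, and its own change was not called (0.61, adjusted p = 0.307, and 0.96, adjusted p = 0.0829). Downstream less representing, the difference changed by 1.44 ± 0.34 (SE, adjusted p = 0.00804) with LPS and by 1.11 ± 0.34 (adjusted p = 0.0501) without, in all 4 replicates of each. The former remained without any single array (adjusted p up to 0.0330) and ended without replicate 1 or 3 of every condition (1.39 and 1.1, adjusted p = 0.0531 and 0.122). The latter was called with the replicate number as a block (adjusted p = 0.0214), with the slide as a block (0.0123), under quantile normalization (0.0304) and normexp (0.0252), in the authors' values (0.0258), and without DMSO replicate 4, LPS+DMSO replicate 1 or 4 or LPS+cordycepin replicate 2 or 3 (0.0312 to 0.0490).

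**Figure D4:**
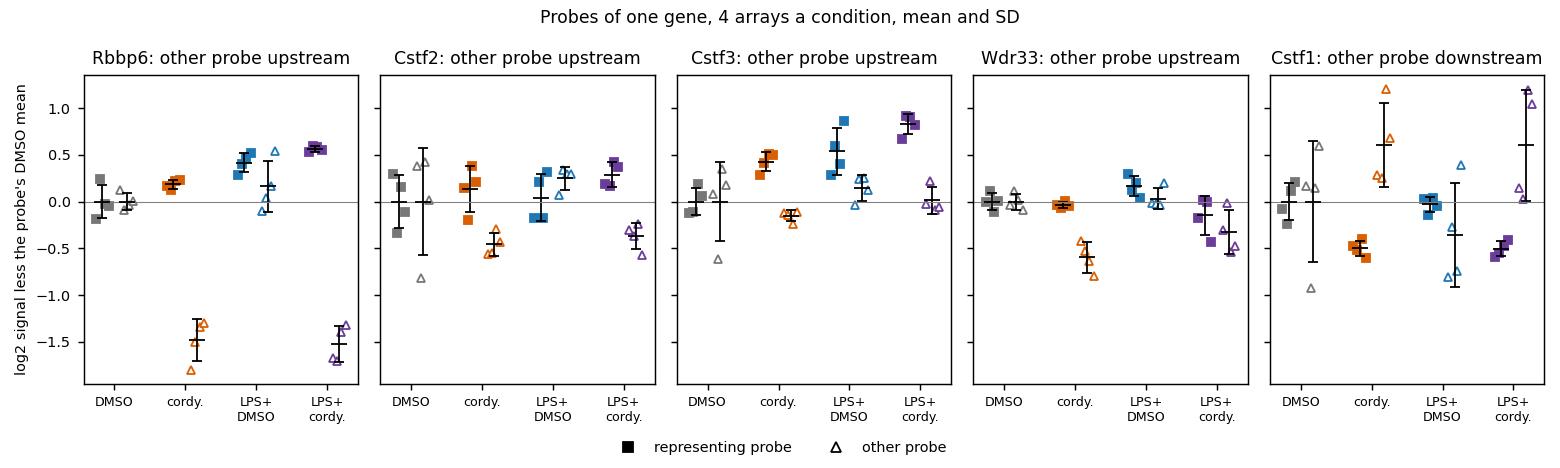
Log2 signal of 2 probes of the same gene, each less its own DMSO mean, on the 4 arrays of each condition with mean and SD. Filled squares are the representing probe and open triangles the other, which lies upstream for Rbbp6, Cstf2, Cstf3 and Wdr33 and downstream for Cstf1. The open triangles of Rbbp6 lie low in both cordycepin conditions, and those of Cstf1 move up while its squares move down.

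Proteins that work with this machinery were listed as well, and their counts stand beside 10.8% of all genes called higher and 8.35% lower with LPS present, and 8.07% and 7.73% without. Among 8 Integrator partners, 1 was lower after cordycepin with LPS and 2 without, and 0 were higher. Inip, a member of a single-stranded DNA binding complex with Ints3, changed by -0.59 (adjusted p = 0.000469) and -0.39 (adjusted p = 0.0143), and by -1.15 with LPS alone (adjusted p = 1.03e-06). Nabp1, of the same complex, had a higher signal with LPS, but it was well above background on 0 arrays of some condition. It passed the filter through conditions where it is high, so neither a fold nor a test is given. Of 17 exosome cofactors, 1 was higher and 2 were lower with LPS, and 1 was higher and 3 were lower without. Zcchc7, of the complex that feeds RNAs to the exosome, changed by -0.70 (adjusted p = 0.000137) and -0.80 (adjusted p = 5.51e-05). Zfc3h1, of a nuclear route to the exosome, rose by 0.85 with LPS present (adjusted p = 0.00202), and Ncbp2, of the complex that binds the cap, by 0.61 without it (adjusted p = 0.0125).

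Among 35 other termination and 3′ end factors, 3 were higher and 5 lower after cordycepin in the presence of LPS, and 2 and 3 without (8.57% and 14.3% of the list, then 5.71% and 8.57%). The 3 that were called with a change of 2-fold or more all fell, in both settings. Cdk12, a kinase of elongating polymerase, changed by -1.88 (adjusted p = 1.82e-06) and -1.93 (adjusted p = 1.95e-06). The poly(A) polymerase Papolg changed by -1.73 in both (adjusted p = 1.40e-06 and 1.94e-06), and Scaf8, which restrains early termination, by -1.38 (adjusted p = 1.40e-06) and -1.58 (adjusted p = 4.95e-07). Papola, the main poly(A) polymerase, was higher, by 0.54 (adjusted p = 0.00113) and 0.34 (adjusted p = 0.0326). Ppp1r10, the phosphatase partner PNUTS, rose by 0.41 (adjusted p = 0.0378) and 0.89 (adjusted p = 0.000130) with cordycepin in the same order, and by 1.41 with LPS alone (adjusted p = 1.60e-06). In the small list for histone messages, 1 of 6 was higher and 1 lower with LPS present, and 0 and 2 without. The higher one was Zfp473, a zinc finger protein of histone processing. As few as 2 of 4 arrays of a condition measured it well above background, so its call partly follows from the filter. Its measured differences were 1.08 with LPS present and -1.49 with LPS alone, given as a description, with no test. Lsm11, of the U7 particle, changed by -0.63 (adjusted p = 0.00584) and -0.69 (adjusted p = 0.00402).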

How the data were processed

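The intensity of each spot was deposited by the authors as Agilent Feature Extraction output (10.7.3.1 in the file headers, 10.10.1.1 in the submitters' processing notes), background-subtracted and not normalized between arrays. The deposited flags for spots well above background and outliers were also used. A table of log2 values deposited by the authors (25775 spots, method not stated) served as an alternative. RNA was labelled with a kit that primes on poly(A) tails, so tail length could affect signal, and this was not tested.

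Processed intensities were log2-transformed, outlier spots left out (no member probe lost a value) and spots of a probe averaged. Each array was set to its 75th percentile, taken over 18147 probes that every array measured above background. A probe was kept (21597 were) where all 4 arrays of some condition measured it so. The 4 condition means were fitted with limma 3.58.1 (R 4.3.3) without a block, and p was adjusted by Benjamini-Hochberg over 15877 genes. For further probes of a gene p was adjusted over all 21597 kept probes, and for differences between probes over the 5720 differences. Code was tested on simulated data. Samples with the same replicate number share a day per the labels, and their residuals correlated by 0.20 on average (20 of 24 pairs over 0.1), against 0.18 for other pairs on a slide. Positions are on mm9. The alternatives covered scaling, background, dim-probe filter, probe summary, blocks, thresholds and left-out arrays. Any member could be named, with array values for Cpsf4, Wdr33, the 3 largest called rises and falls per comparison, and genes whose probes differed by 1 log2 unit. Listed partners were named by the largest called rise and fall per comparison, at most 3 per list, and Papolg and Scaf8 were added after their values were seen. Members and lists were chosen with earlier results of these data known, and other values shown were chosen after they were seen. A listed marker is not reported here.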

Additional observations from a re-analysis of the deposited data

Results flagged for a closer look

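Of 204 sets of 4 arrays (51 kept member probes in 4 conditions), 11 held a value far from the other 3 by Dixon's ratio, 5.39% where chance alone gives about 1 in 20. Cpsf3l in LPS+cordycepin replicate 3 was at 5.49, with the other 3 arrays at 12.28 to 12.50. Cpsf3l was also high in LPS+DMSO replicate 4 (12.65 against 12.19 to 12.22).

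The other 9 were small. Low values were Sympk in LPS+cordycepin replicate 4 (12.86), Clp1 in cordycepin replicate 2 (8.85), Cpsf3 in cordycepin replicate 4 (13.78), Exosc7 in DMSO replicate 2 (12.35) and Ints2 in DMSO replicate 1 (6.42) and LPS+cordycepin replicate 1 (6.49). High values were Cpsf7 in cordycepin replicate 3 (12.25), Exosc10 in DMSO replicate 1 (11.60) and the further Wdr33 probe in LPS+DMSO replicate 4 (10.07). No member was called in the interaction.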

How the results depend on the processing

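The main counts of called members were 6 with LPS (LPS+cordycepin against LPS+DMSO), 6 without (cordycepin against DMSO), 3 for LPS and 0 for the interaction, and the interaction stayed at 0 in every setting run. With the replicate block, where samples are paired by day, the counts were 6, 5, 3 and 0, and the one member call it changed was that of Fip1l1. The counts fell most with scaling to spiked-in probes (1, 0 and 0), with no filter on dim probes (2 and 1 in the cordycepin comparisons), at 2-fold (0, 0 and 0) and at an adjusted p under 0.01 (1 and 1). The 2 with no filter include Ints6, which no LPS+DMSO array measured. The methods' univariate test gave 11 without LPS and 5 for LPS unadjusted, and 0 for LPS after Benjamini-Hochberg.

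Leaving out a replicate number in every condition gave 1 to 6 with LPS (1, 6, 2 and 1 without numbers 1 to 4), 1 to 5 without (1, 5, 1 and 4) and 1 to 2 for LPS (1 without number 3). Leaving out 1 array gave 1 to 7, 2 to 7 and 2 to 4. With LPS it was 1 without LPS+cordycepin replicate 4, 2 without LPS+DMSO replicate 1 or 2 or LPS+cordycepin replicate 1, and 3 without LPS+DMSO replicate 3 or LPS+cordycepin replicate 3. Without LPS it was 2 without cordycepin replicate 3 and 3 without cordycepin replicate 2 or 4.

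The median member change was 0.01, 0.03, 0.05 and 0.00. It moved to -0.11, -0.0265 and 0.12 in the first 3 with the percentile over all probes, and to -0.14, 0.10, -0.0479 and -0.22 with spiked-in scaling, together with the median of all genes. Without LPS it ranged from -0.0657 (without DMSO replicate 2) to 0.0835 (without DMSO replicate 4) over fits without 1 array and was -0.03 without replicate 2. Reversed values were those of Cstf1 with the mean of its probes, 0.24 and 0.0531. Over all members, comparisons and alternatives, 4993 of 5236 values kept their call or, where uncalled, moved by less than the SD between replicates, 139 were no longer called, 24 were newly called, 78 uncalled values moved by more than that SD, and 2 reversed. With 4 arrays a condition the number of arrays limits the precision, and dim probes such as Pcf11 depend on the background correction.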
